A study of Homo sapiens with 24 samples.

Results

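The 10 genes described here belong to the insulin and insulin-like growth factor (IGF) pathway. They are the receptors INSR and IGF1R, the receptor adaptors IRS1 and IRS2, the IGF binding proteins IGFBP3 and IGFBP6, the PI3K inhibitor PIK3IP1, and the transcription factors FOXO1, FOXO3 and FOXO4. They were chosen by name, with earlier results of these data known. All 10 were found by Ensembl gene identifier among the 60617 genes of the count table. They were also among the 15476 genes that passed the filter on low counts. MDA686TU (686Tu) is a malignant cell line from head and neck squamous cell carcinoma. The cells were grown in DMEM/F12 with fetal bovine serum and were left untreated, or were treated for 24 h with the green tea polyphenol EGCG at 40 μM, with the grape polyphenol resveratrol at 15 μM, or with both agents at these doses, with 6 libraries in each of the 4 groups. DMSO was the solvent of the resveratrol stock and water that of EGCG, and the methods do not say whether the untreated cells received DMSO, so an effect of resveratrol and an effect of its solvent cannot be told apart. In the GENCODE annotation of GRCh38 the receptors and adaptors are INSR at chr19:7112255-7294414 (minus strand), IGF1R at chr15:98648539-98964530 (plus strand), IRS1 at chr2:226731312-226799820 (minus strand) and IRS2 at chr13:109752695-109786583 (minus strand). The binding proteins and the inhibitor are IGFBP3 at chr7:45912245-45921874 (minus strand), IGFBP6 at chr12:53097436-53102345 (plus strand) and PIK3IP1 at chr22:31281594-31292534 (minus strand), and the FOXO genes are FOXO1 at chr13:40555667-40666641 (minus strand), FOXO3 at chr6:108559835-108684774 (plus strand) and FOXO4 at chrX:71095851-71103532 (plus strand). The methods give RNA isolation in sextuplicate per group. Neither they nor the labels say whether the 6 replicates of a group were separate cultures. The p-values thus measure the spread between these libraries, which may be technical. All results are of 1 cell line.

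Insulin and the IGFs bind the receptor tyrosine kinases INSR and IGF1R, which phosphorylate the adaptor proteins IRS1 and IRS2 and so recruit PI3K and activate AKT. Active AKT phosphorylates the FOXO transcription factors and keeps them out of the nucleus, and when AKT is less active the FOXO factors enter the nucleus and activate genes of growth arrest, stress resistance, autophagy and apoptosis. FOXO factors are also known to raise transcription of INSR and IRS2, and the IGF binding proteins hold IGFs in the medium and limit their access to IGF1R. The count of an mRNA does not report phosphorylation or the location of a protein.

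The libraries held between 7034872 and 11735574 counts, and the biological coefficient of variation over all tested genes was 5.32%. All 11 squamous epithelial markers examined (KRT5, KRT14, TP63 and others) passed the filter, with KRT14 highest at a mean of 1654 FPKM (reads scaled by gene length and library depth) in the untreated control. None of 4 blood cell markers passed it, and of 5 fibroblast and 3 endothelial markers only COL1A1 and VWF did. The summed level of the squamous markers was 6800 to 7155 FPKM in untreated libraries, 6500 to 7290 with EGCG, 5668 to 5970 with resveratrol and 5640 to 6084 with the combination, and the part of this shift in the results was not tested. The 4 keratins, SFN and ITGA6 made up most of this sum, and single markers did not all follow it. CDH1 had a mean of 3562 normalized counts in untreated libraries and of 4354 and 4799.6 under resveratrol and the combination, and EPCAM had means of 1909, 1919.7 and 1973. The summed level of the fibroblast markers, nearly all COL1A1, was 12.8 to 15.7 FPKM in untreated libraries, with a mean COL1A1 level of 13.8 FPKM there, 11.4 under EGCG, 16.9 under resveratrol and 19.3 under the combination, and its part in the results was not tested. The mitochondrial share of reads lay at 0.249% to 0.326% for replicates 1 to 3 of every group and at 0.448% to 0.775% for replicates 4 to 6. The labels do not name a reason for this split, each set has 3 libraries per group, and results within a set follow where they alter a call. Of the 10 genes, 1 was called different between the sets, IGF1R, which was higher in replicates 4 to 6 by 0.09 on the log2 scale (adjusted p = 0.0674), where 6.18% of all tested genes were called, a share near that of the 10.

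Untreated 686Tu cells expressed the pathway unevenly. Per gene length, the binding proteins were highest, IGFBP6 at 52.8 ± 1.94 FPKM and IGFBP3 at 52.1 ± 2.45 FPKM (SD, n = 6), and these 2 levels did not separate. Such comparisons between genes rest on the gene lengths behind the deposited FPKM, which are not given in the sources used here. IGF1R stood at 13.9 ± 1.05 FPKM, FOXO3 at 10.5 ± 0.619 FPKM and IRS1 at 10.3 ± 0.452 FPKM, and the ranges of FOXO3 and IRS1 overlapped. IRS2 followed at 4.90 ± 0.383 FPKM and FOXO1 at 2.14 ± 0.250 FPKM. PIK3IP1 was at 0.502 ± 0.0658 FPKM and FOXO4 at 0.390 ± 0.126 FPKM, with overlapping ranges. INSR was at 0.0920 ± 0.0332 FPKM, which placed it at percentile 0.614 of the tested genes, and it rested on 3 to 16 reads per library over all 24 libraries. Of the summed mRNA of INSR and IGF1R, almost all was thus IGF1R. Statements about INSR, FOXO4 (8 to 31 reads) and PIK3IP1 (11 to 33 reads) are limited by depth.

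**Figure D1:**
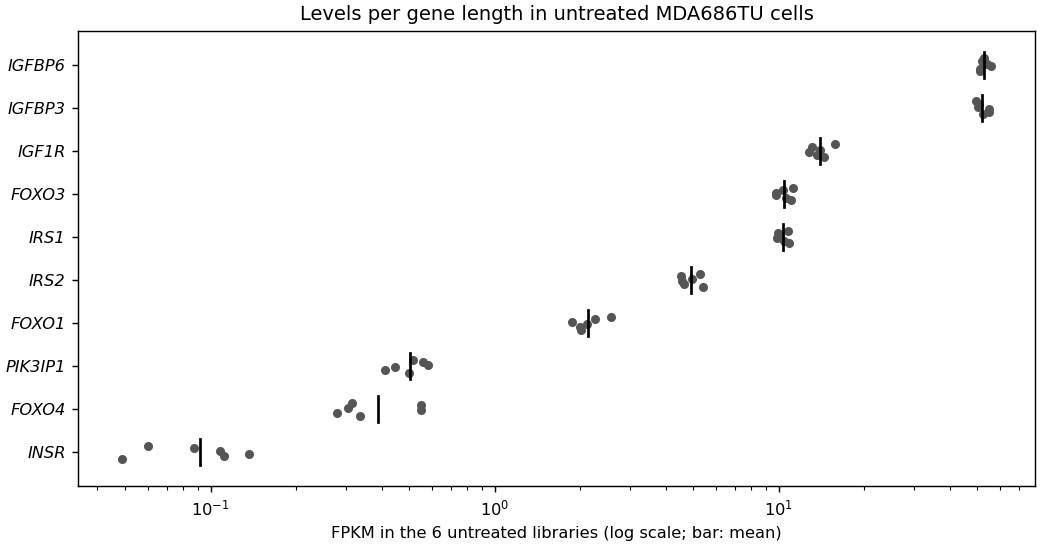
Level of each of the 10 genes in the 6 untreated libraries, in FPKM on a log axis, with a point per library and a bar at the mean. IGFBP6 and IGFBP3 lie above 40 FPKM in every library and INSR lies below 0.2 FPKM.

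The promoter windows of the adaptors, PIK3IP1 and the 2 more abundant FOXO genes are shown because these genes moved in opposite directions or by different amounts with treatment. Each window holds the 250 bases before the RefSeq transcript start on GRCh38.p14, and all 10 genes matched an entry. Capitals mark 3 motifs, each searched on both strands. They are the GC box, spelled GGGCGG, where neighbouring boxes may share bases. The CCAAT box is spelled as its name says. The insulin response sequence has the letters CAAAACA.
IRS1, chr2:226799821-226800070, minus strand: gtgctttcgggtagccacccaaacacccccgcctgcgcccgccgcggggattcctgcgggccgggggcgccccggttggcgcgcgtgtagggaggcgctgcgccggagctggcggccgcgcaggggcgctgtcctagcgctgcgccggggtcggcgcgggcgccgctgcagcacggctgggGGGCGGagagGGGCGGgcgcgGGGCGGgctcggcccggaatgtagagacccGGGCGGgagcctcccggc
IRS2, chr13:109786584-109786833, minus strand: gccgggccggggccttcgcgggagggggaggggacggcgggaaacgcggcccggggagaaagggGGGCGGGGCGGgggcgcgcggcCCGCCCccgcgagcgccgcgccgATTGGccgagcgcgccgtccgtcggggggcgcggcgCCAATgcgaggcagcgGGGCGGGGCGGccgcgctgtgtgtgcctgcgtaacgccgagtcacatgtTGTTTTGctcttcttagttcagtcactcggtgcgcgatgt
PIK3IP1, chr22:31292535-31292784, minus strand: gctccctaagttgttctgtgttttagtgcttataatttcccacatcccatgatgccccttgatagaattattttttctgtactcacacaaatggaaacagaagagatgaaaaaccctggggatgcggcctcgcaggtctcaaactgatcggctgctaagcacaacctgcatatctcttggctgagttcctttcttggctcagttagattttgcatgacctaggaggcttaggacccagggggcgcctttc
FOXO1, chr13:40666642-40666891, minus strand: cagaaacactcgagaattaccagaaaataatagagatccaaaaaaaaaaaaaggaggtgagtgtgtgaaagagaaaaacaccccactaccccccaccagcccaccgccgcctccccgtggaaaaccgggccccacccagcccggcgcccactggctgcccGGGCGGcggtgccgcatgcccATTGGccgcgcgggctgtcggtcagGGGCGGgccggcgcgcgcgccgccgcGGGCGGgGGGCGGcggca
FOXO3, chr6:108559575-108559824, plus strand: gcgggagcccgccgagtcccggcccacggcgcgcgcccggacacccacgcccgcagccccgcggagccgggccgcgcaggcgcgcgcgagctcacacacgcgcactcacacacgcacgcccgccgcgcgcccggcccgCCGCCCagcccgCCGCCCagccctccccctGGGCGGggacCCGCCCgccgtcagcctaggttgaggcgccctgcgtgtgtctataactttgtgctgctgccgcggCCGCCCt

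The window of IRS2 holds the insulin response sequence, read as TGTTTTG on the gene's strand at position -40 from the start, and no other of the 10 windows holds it. Of all 27305 promoters in the table, 4.34% hold it. The FOXO binding sequence GTAAACA is in the window of IGFBP6 at position -186 and in no other of the 10, against 2.98% of all promoters. The IGFBP6 window, chr12:53097417-53097666, lies mostly within the gene as placed by GENCODE, and so does this motif. The IGFBP3 window, chr7:45921273-45921522, lies wholly within its GENCODE gene. GC boxes are in 8 of the 10 windows, all but PIK3IP1 and FOXO4, against 42.3% of all promoters. CCAAT boxes are in those of IRS2 and FOXO1, against 33.0%. The E-box CACGTG and the aryl hydrocarbon receptor core GCGTG were also searched and are not marked. The core is in the windows of IGF1R, IRS1, IGFBP3, FOXO3 and FOXO4, against 31.9% of all promoters. The E-box is in none of the 10, against 6.49%. The PIK3IP1 window has the lowest GC content of the 10 at 46.8%, where the median of all promoters is 58.0%, and the windows of IRS1 and FOXO3 have 80.8% and 80.4%. These letters are a description of the sequence, and binding at them was not measured.

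A gene was called upregulated or downregulated when its Benjamini-Hochberg adjusted p over all 15476 tested genes was under 0.1 and its unadjusted p under 0.05 in edgeR's quasi-likelihood test. With resveratrol, 8 of the 10 genes were called against the untreated control, 4 upregulated (IRS2, PIK3IP1, FOXO1 and FOXO3) and 4 downregulated (IGF1R, IRS1, IGFBP3 and IGFBP6). Of all tested genes 56.9% were called in this comparison, 28.9% upregulated and 28.0% downregulated. With the combination, 8 were called, 5 upregulated (IRS2, PIK3IP1, FOXO1, FOXO3 and FOXO4) and 3 downregulated (IGF1R, IRS1 and IGFBP3), where 59.8% of all tested genes were called, 29.9% in each direction. EGCG alone gave no called gene of the 10, against 1.76% of all tested genes, and DESeq2 also gave 0 but left INSR, PIK3IP1 and FOXO4 without an adjusted p. At an unadjusted p under 0.05, 4 of the 10 passed with EGCG (IRS2, IGFBP3, IGFBP6 and FOXO4), against 10.1% of all genes. The groups shared no range for 4 of the 10 genes with resveratrol (31.0% of all genes), for 4 with the combination (31.9%) and for 0 with EGCG (1.58%). These 3 comparisons share the same untreated libraries. With scaling by library size only, all calls with resveratrol changed from 4466 upregulated and 4341 downregulated to 6147 and 2857, and with the combination from 4633 and 4625 to 6041 and 3311. Under that scaling the 10 genes gave 4 upregulated and 2 downregulated with resveratrol and 5 and 2 with the combination. As each library is RNA of a whole culture, fewer cells that express a gene and less RNA per cell cannot be told apart.

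**Figure D2:**
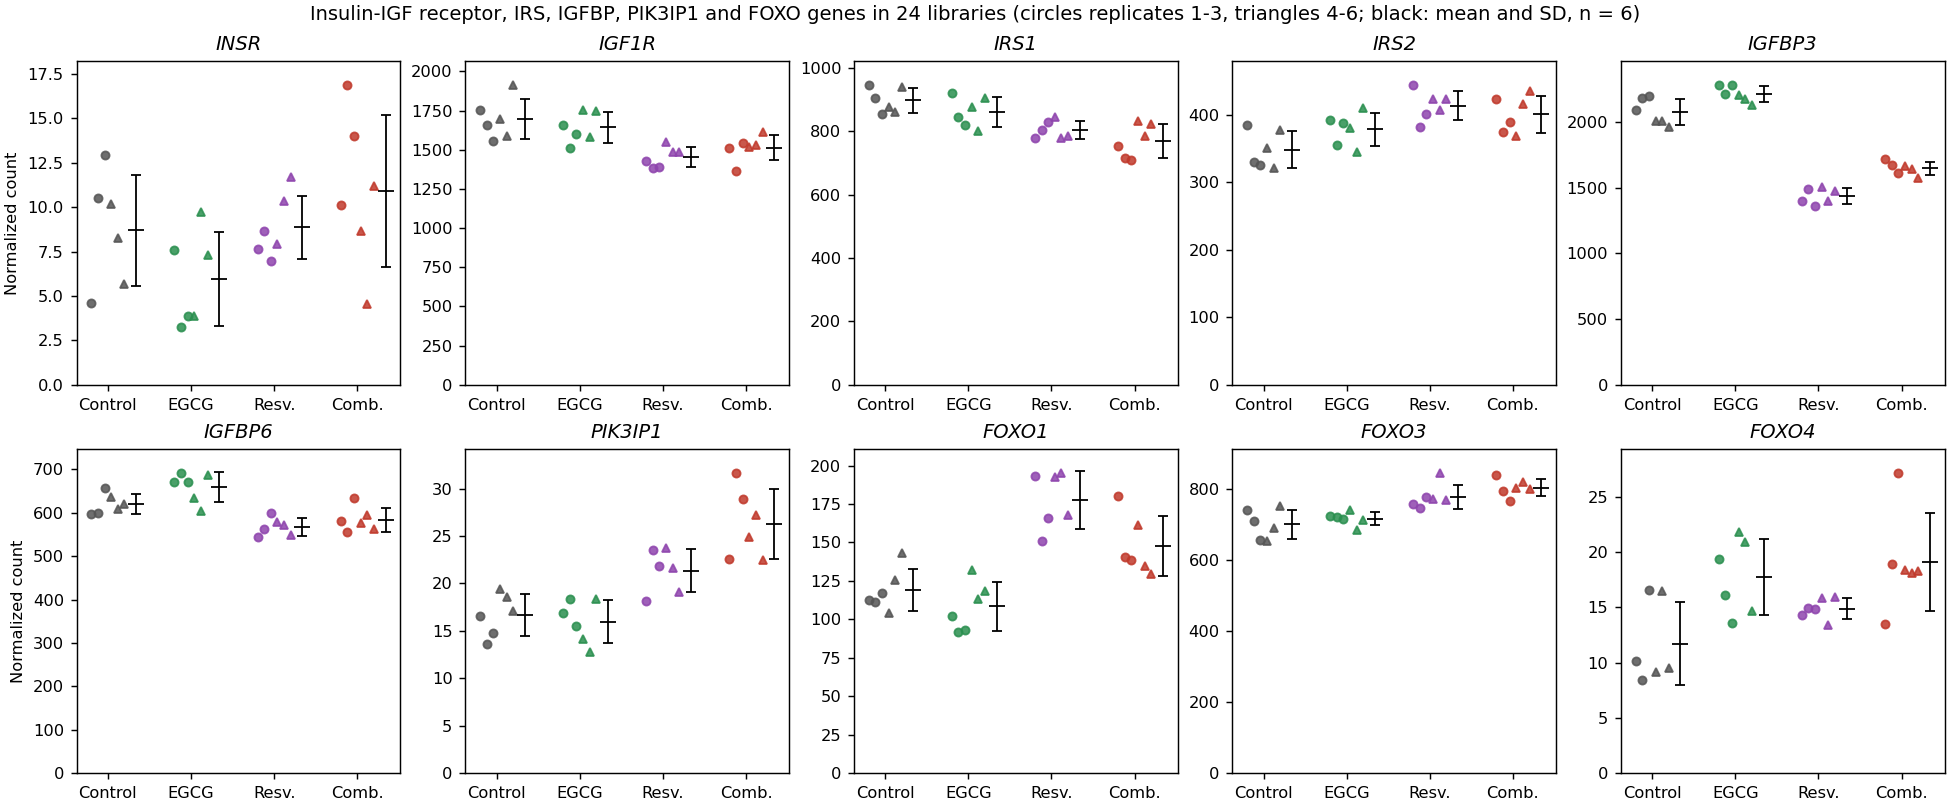
Normalized counts of the 10 genes in each of the 24 libraries by group (x axis: untreated control, EGCG, resveratrol, combination), with circles for replicates 1 to 3, triangles for replicates 4 to 6 and the mean with SD in black. All 6 resveratrol libraries and all 6 combination libraries lie below the untreated libraries for IGFBP3, between 1358 and 1721 against 1965 to 2198.

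**Figure D3:**
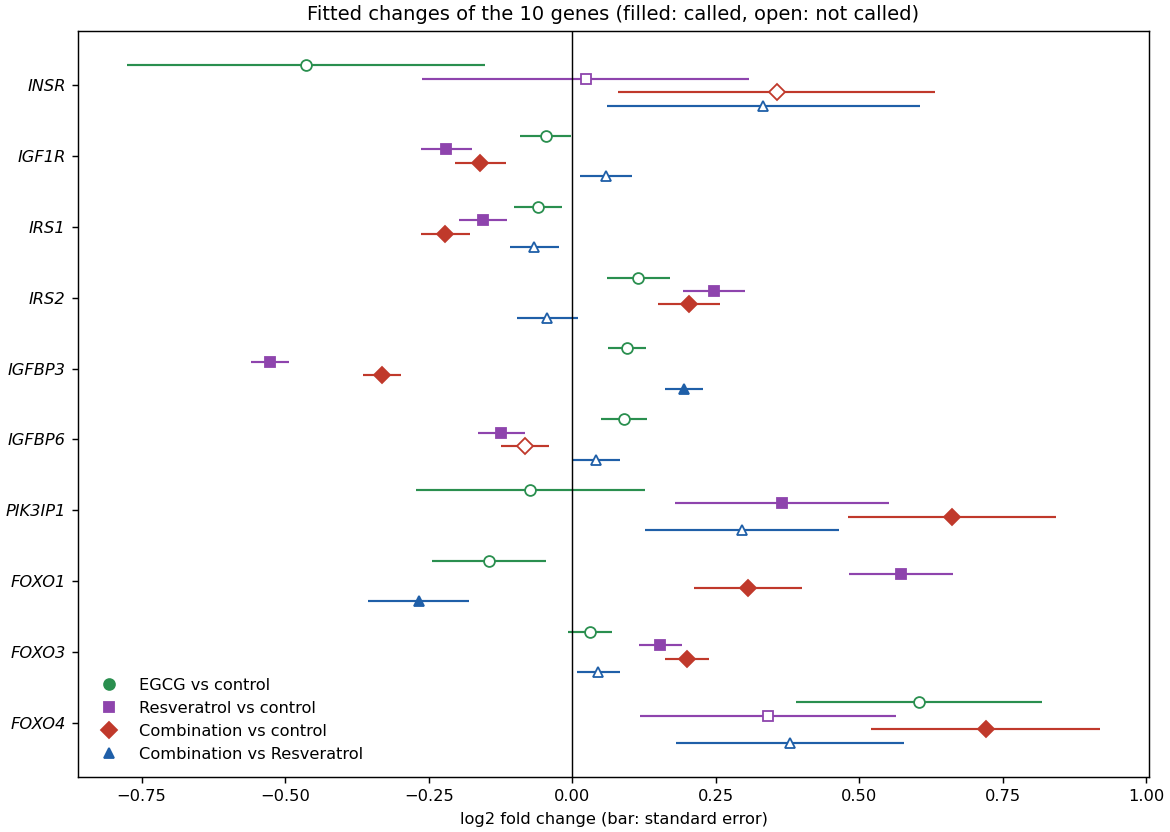
Fitted log2 fold change of the 10 genes with its standard error in 4 comparisons, filled where called and open where not. Resveratrol and the combination place IGF1R, IRS1 and IGFBP3 left of 0 and IRS2, PIK3IP1, FOXO1 and FOXO3 right of it.

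Of the receptors, IGF1R, which binds IGF1 and IGF2 and signals for growth and survival, fell with resveratrol and with the combination. Its normalized counts ran from 1558 to 1913 with a median of 1679 in untreated libraries and from 1508 to 1757 with a median of 1629 with EGCG. With resveratrol they ran from 1383 to 1547 with a median of 1455, and with the combination from 1362 to 1611 with a median of 1524. All resveratrol libraries lay below all untreated ones, while 1 combination library (replicate 6) reached into the untreated range. The log2 fold change was -0.22 ± 0.0445 (SE) with resveratrol (fold 0.859, adjusted p = 8.29e-05) and -0.16 ± 0.0446 with the combination (fold 0.895, adjusted p = 0.00253). The call with the combination was lost with scaling by library size only (-0.08, adjusted p = 0.125). The combination was also lower than EGCG (-0.11 ± 0.0448, adjusted p = 0.0304), a call that did not hold without EGCG replicate 1 (-0.09), EGCG replicate 4 (-0.08), EGCG replicate 6 (-0.08) or combination replicate 2 (-0.09), in replicates 1 to 3 alone (-0.11, adjusted p = 0.114) with library size as the scaling (-0.04) or with genes of at least 10 counts in every library (-0.09, adjusted p = 0.0952).

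INSR, the insulin receptor, showed no called change against the untreated control. Its normalized counts ran from 4.61 to 12.9 with a median of 9.22 in untreated libraries, from 3.23 to 9.73 with a median of 5.61 with EGCG, from 6.98 to 11.7 with a median of 8.27 with resveratrol, and from 4.53 to 16.9 with a median of 10.7 with the combination. All 4 ranges overlapped. The log2 difference from the control lay between -0.53 and 0.58 with resveratrol and between -0.18 and 0.90 with the combination (1.96 SE on each side). The combination was called above EGCG (0.82 ± 0.298, adjusted p = 0.0198), with 1.42 in replicates 1 to 3 alone and 0.14 in replicates 4 to 6 alone (adjusted p = 0.827).

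The adaptors moved in opposite directions. IRS1, a main docking protein of IGF1R, fell, and IRS2, the docking protein best known from insulin action in liver and beta cells and a known FOXO target, rose. IRS1 had normalized counts of 853 to 945 (median 892) in untreated libraries, 800.1 to 920 (861) with EGCG, 778 to 846 (794) with resveratrol and 708 to 832 (768) with the combination. All libraries with resveratrol, alone or combined, lay below all untreated ones, while those with EGCG alone overlapped them. Its log2 fold change was -0.16 ± 0.0422 with resveratrol (fold 0.898, adjusted p = 0.00230) and -0.22 ± 0.0428 with the combination (fold 0.858, adjusted p = 3.74e-05). Against EGCG alone the combination was lower (-0.16 ± 0.0430, adjusted p = 0.00188), with -0.25 in replicates 1 to 3 and -0.07 in replicates 4 to 6 (adjusted p = 0.301 there). With library size as the only scaling, the calls with resveratrol (-0.07, adjusted p = 0.176) and against EGCG (-0.09) were lost.

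IRS2 had normalized counts of 322 to 385 (median 341) in untreated libraries, 345 to 409 (384) with EGCG, 382 to 444 (416) with resveratrol and 368 to 435 (403) with the combination. The untreated range touched every treated range. IRS2 was upregulated with resveratrol by 0.25 ± 0.0535 on the log2 scale (fold 1.19, adjusted p = 0.000197) and with the combination by 0.20 ± 0.0544 (fold 1.15, adjusted p = 0.00179). With EGCG its log2 fold change was 0.12 ± 0.0546 (adjusted p = 0.460). The interaction term, which compares the combination with the sum of the separate log2 changes, was -0.16 ± 0.0761 (adjusted p = 0.633) and was not called.

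Within a library, the share of IRS2 in the summed FPKM of IRS1 and IRS2 was 32.1 ± 0.974% (SD, n = 6) in untreated cells, 34.9 ± 1.01% under EGCG, 38.6 ± 1.66% under resveratrol and 38.9 ± 1.99% under the combination. The highest untreated library had 33.2%, and the lowest library had 33.9% under EGCG, 36.7% under resveratrol and 35.1% under the combination. The 3 treated groups thus lay above the untreated group, and the resveratrol and combination ranges overlapped. This share is a description, and no test was made on it.

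**Figure D4:**
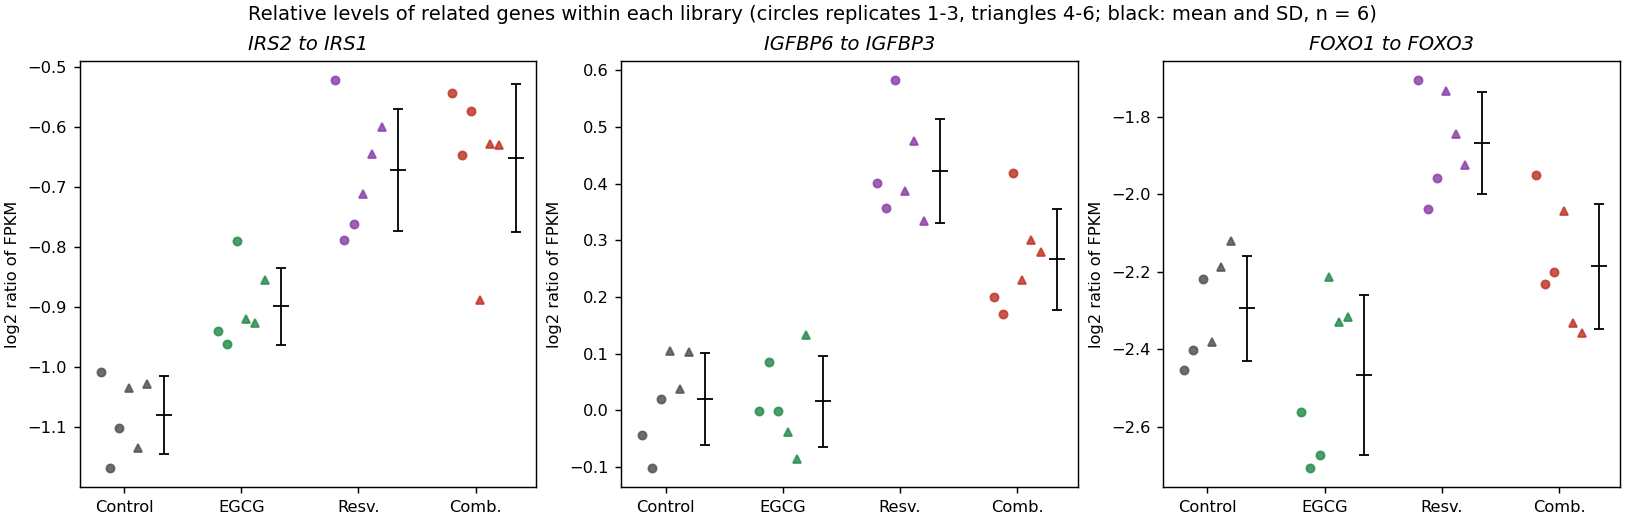
The log2 ratio of FPKM between related genes within each library, for IRS2 to IRS1, IGFBP6 to IGFBP3 and FOXO1 to FOXO3, by group, with circles for replicates 1 to 3, triangles for replicates 4 to 6 and the mean with SD in black. The mean IRS2 to IRS1 ratio goes from -1.08 without treatment to -0.67 under resveratrol and -0.65 under the combination.

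IGFBP3, the main IGF carrier of blood and a known growth inhibitor in epithelial cells, had the smallest adjusted p of the 10 genes with resveratrol and with the combination. Untreated libraries ran from 1965 to 2198 normalized counts with a median of 2052, and EGCG libraries from 2127 to 2282 with a median of 2211. With resveratrol they ran from 1358 to 1503 with a median of 1437, and with the combination from 1571 to 1721 with a median of 1654. The untreated, resveratrol and combination ranges did not overlap one another, and the EGCG range overlapped only the untreated one. IGFBP3 was downregulated by resveratrol (-0.53 ± 0.0331 on the log2 scale, fold 0.694, adjusted p = 7.07e-16) and by the combination (-0.33 ± 0.0330, fold 0.795, adjusted p = 8.97e-11). The combination was higher than resveratrol alone by 0.20 ± 0.0334 (adjusted p = 0.000200), in a comparison where 7.86% of all genes were called and 3.20% did not overlap. With replicates 1 to 3 alone this difference was 0.23 (adjusted p = 0.00482) and with replicates 4 to 6 alone 0.16 (adjusted p = 0.0446). With EGCG alone the log2 fold change was 0.10 ± 0.0325 (adjusted p = 0.193), and the interaction was 0.10 ± 0.0466 (adjusted p = 0.623), neither of which was called.

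IGFBP6, a carrier that prefers IGF2, had smaller log2 changes. Normalized counts ran from 598 to 656 (median 615) in untreated libraries, 605 to 692 (672) with EGCG, 544 to 599 (567) with resveratrol and 555 to 634 (579) with the combination. Untreated and resveratrol libraries met at their edges. It was downregulated by resveratrol (-0.12 ± 0.0409, fold 0.918, adjusted p = 0.0110), a call that was lost with library size as the only scaling (-0.04, adjusted p = 0.482) and in replicates 1 to 3 alone (-0.11, adjusted p = 0.159). With the combination its log2 fold change was -0.08 ± 0.0412 (unadjusted p = 0.0538, adjusted p = 0.0891 by edgeR). It was not called there, though it was without untreated replicate 1 (-0.09), untreated replicate 2 (-0.09) or combination replicate 3 (-0.11). The combination was lower than EGCG (-0.17 ± 0.0411, adjusted p = 0.000600). The log2 ratio of IGFBP6 to IGFBP3 within a library was 0.02 ± 0.0811 (SD) in the untreated control and 0.02 ± 0.0805 with EGCG, and 0.42 ± 0.0919 with resveratrol and 0.27 ± 0.0892 with the combination.

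PIK3IP1, a transmembrane protein that binds the catalytic subunit of PI3K and inhibits it, had its highest level with the combination. Its normalized counts ran from 13.7 to 19.4 (median 16.8) in untreated libraries, 12.7 to 18.3 (16.2) with EGCG, 18.1 to 23.7 (21.7) with resveratrol and 22.4 to 31.6 (26.1) with the combination. All combination libraries lay above all untreated and all EGCG libraries, and resveratrol libraries overlapped both of these and the combination. The log2 fold change with the combination was 0.66 ± 0.181 (fold 1.58, adjusted p = 0.000774), with 0.89 in replicates 1 to 3 (adjusted p = 0.00323) and 0.43 in replicates 4 to 6 (adjusted p = 0.168). Against EGCG it was 0.73 ± 0.184 (adjusted p = 0.000240), where 57.8% of all genes were called. With resveratrol it was 0.37 ± 0.186 (fold 1.29, adjusted p = 0.0867), a call at the edge of the threshold that DESeq2 did not make (0.36, adjusted p = 0.201). Neither set of replicates alone gave the call (0.51 and 0.23). It was also lost in 8 of the 12 fits with a library of these groups left out, those without untreated replicates 1, 2, 3 or 6 or resveratrol replicates 2, 3, 4 or 5, with log2 fold changes of 0.32 to 0.37. The combination and resveratrol differed by 0.30 ± 0.169 (adjusted p = 0.354), and the interval of that difference ran from -0.04 to 0.63.

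All 3 FOXO genes rose with the combination, and FOXO1 and FOXO3 also with resveratrol alone. FOXO1, the FOXO factor best known from insulin action in liver, was highest with resveratrol. Its normalized counts ran from 104 to 143 (median 115) in untreated libraries, 91.6 to 132 (107) with EGCG, 151 to 195 (180.4) with resveratrol and 129 to 180.4 (139) with the combination. All resveratrol libraries lay above all untreated and EGCG ones, and the combination overlapped every other group. The log2 fold change was 0.57 ± 0.0905 with resveratrol (fold 1.49, adjusted p = 1.71e-06), with 0.58 in replicates 1 to 3 and 0.57 in replicates 4 to 6. With the combination it was 0.31 ± 0.0947 (fold 1.24, adjusted p = 0.00617), with 0.42 in replicates 1 to 3 and 0.18 in replicates 4 to 6 (adjusted p = 0.211). The combination was lower than resveratrol (-0.27 ± 0.0883, fold 0.831, adjusted p = 0.0711) and higher than EGCG by 0.45 ± 0.0967 (adjusted p = 0.000168), with 0.24 in replicates 4 to 6 alone (adjusted p = 0.102). The difference from resveratrol was -0.15 in replicates 1 to 3 (adjusted p = 0.490) and -0.39 in replicates 4 to 6 (adjusted p = 0.0570). It was not called without resveratrol replicates 1, 4 or 5 or combination replicates 2, 3, 5 or 6, where it ran from -0.25 to -0.23.

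FOXO3, the most abundant FOXO mRNA here and a known regulator of apoptosis and autophagy genes, rose with both treatments that held resveratrol. Its normalized counts ran from 652 to 750.3 (median 699) in untreated libraries, 683 to 739 (717) with EGCG, 745 to 843 (769) with resveratrol and 766 to 839 (799) with the combination. The combination libraries lay above all untreated and EGCG libraries, and the resveratrol range met the untreated one at its top. The log2 fold change was 0.15 ± 0.0381 with resveratrol (fold 1.11, adjusted p = 0.000908) and 0.20 ± 0.0383 with the combination (fold 1.15, adjusted p = 3.40e-05). FOXO3B, a near-identical copy on chromosome 17, had normalized counts of 37.5% to 48.3% of those of FOXO3, and how reads were shared between the copies is not given in the sources used here. FOXO3B itself was called with the combination (0.14 ± 0.0572, adjusted p = 0.0397) and not with resveratrol (0.06 ± 0.0569, adjusted p = 0.400). With the counts of both copies summed, an alternative chosen after seeing the data, the log2 fold change was 0.12 (adjusted p = 0.00520) with resveratrol and 0.18 (adjusted p = 9.86e-05) with the combination.

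The least expressed of the 3, FOXO4, had normalized counts of 8.40 to 16.6 (median 9.82) in untreated libraries, 13.6 to 21.8 (17.8) with EGCG, 13.4 to 15.9 (14.9) with resveratrol and 13.5 to 27.2 (18.4) with the combination. All treated ranges overlapped the untreated one, in which replicates 3 and 5 stood at 16.6 and 16.5 and the other 4 libraries at 8.40 to 10.1. The combination was called higher (0.72 ± 0.199, fold 1.65, adjusted p = 0.00240). The log2 fold change was 0.60 ± 0.214 with EGCG (unadjusted p = 0.00487, adjusted p = 0.177 by edgeR) and 0.34 ± 0.223 with resveratrol (adjusted p = 0.193). Without untreated replicate 3, EGCG was called (0.74, adjusted p = 0.0967), and without untreated replicate 3 or 5 resveratrol was called (0.47 in each). No FOXO gene had a called interaction.

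Together the 3 FOXO genes summed to 13.0 ± 0.761 FPKM in untreated cells, 13.2 ± 0.489 under EGCG, 15.3 ± 0.732 under resveratrol and 15.3 ± 0.525 under the combination (SD, n = 6). FOXO3 made up 80.5% of this sum in the untreated control and 75.9% with resveratrol, and FOXO1 made up 16.4% and 20.8%. With the combination FOXO1 made up 17.3% and FOXO4 4.18%, against 3.02% for FOXO4 in the untreated control. No test was made on these sums and shares.

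Of the 10 genes, 2 were called between the combination and resveratrol, IGFBP3 higher and FOXO1 lower in the combination, where 7.86% of all genes were called, 4.01% higher and 3.86% lower, and 18.2% had an unadjusted p under 0.05. Between the combination and EGCG 8 were called, INSR, PIK3IP1, FOXO1 and FOXO3 higher in the combination and IGF1R, IRS1, IGFBP3 and IGFBP6 lower, where 57.8% of all genes were called, 28.7% higher and 29.1% lower. The ranges of the combination and EGCG did not overlap for 3 of the 10 (IGFBP3, PIK3IP1 and FOXO3), against 27.5% of all genes. The edgeR test of the interaction called 0 of the 10, against 0.265% of all genes (0.207% with a positive and 0.0582% with a negative term). It gave 2 at an unadjusted p under 0.05 (IRS2 and IGFBP3), against 7.72% of all genes, and DESeq2 called 0 as well, with no adjusted p for INSR, PIK3IP1 and FOXO4.

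Apart from FOXO3B, genes that neighbour or overlap the 10 had few reads. PIK3IP1-DT, which overlaps PIK3IP1 by 36 bases on the other strand, and FOXO1B, a FOXO1 copy, had at most 1 read in any library, and IRAIN, an RNA from the IGF1R locus, at most 3. SUMO2P8, a pseudogene on the other strand within FOXO3, had at most 28, and RLIMP1, a pseudogene on the other strand within FOXO1, at most 3. The other genes that overlap IGF1R had at most 2 reads. Library preparation kept strand, but the strand setting of the counting is not given in the sources used here.

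The ligands and carriers around the receptors were read from the same fit, on a list of 15 further genes. INS, IGF1 and INSRR had 0 counts in all 24 libraries, which allows up to 0.426 CPM (counts scaled to library size) in the library with the fewest counts, and IGF2 had at most 2. These counts cover counting error only. Of 8 list genes tested, 1 was upregulated and 2 were downregulated with resveratrol, and 3 and 1 with the combination (median log2 fold change 0.04 and 0.15, against 0.00 over all genes in each). Both counts are shares below the 56.9% and 59.8% of all genes called. PAPPA, a protease that frees IGFs from their binding proteins, fell with resveratrol (-0.46 ± 0.0887, adjusted p = 4.01e-05) and with the combination (-0.56 ± 0.0920, adjusted p = 2.92e-06). IGFBP7, a secreted protein of the same family with weak IGF binding, rose by 0.22 ± 0.0551 and 0.47 ± 0.0547. IGF2R, which clears IGF2, rose with the combination (0.23 ± 0.0476, adjusted p = 9.61e-05) and had 0.09 ± 0.0476 with resveratrol (adjusted p = 0.124). IGF2R was called with resveratrol under the replicate block (0.09, adjusted p = 0.0349), with the set of replicates as a term (0.09), in replicates 4 to 6 alone (0.12), with library size as the scaling (0.18), under either filter on low counts (0.08 and 0.11), in the compared groups alone (0.09), and without untreated replicate 6 (0.12) or resveratrol replicate 3 (0.10). STC2, an inhibitor of PAPPA, rose with EGCG (0.20 ± 0.0241, adjusted p = 6.59e-07) and with the combination (0.22 ± 0.0241), and had 0.03 ± 0.0241 with resveratrol (adjusted p = 0.254). In edgeR STC2 was called with resveratrol with library size as the scaling (0.12, adjusted p = 4.40e-05). It was also called there with genes of at least 10 counts in every library (0.06, adjusted p = 0.0326).

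Among 11 tested receptor adaptors and brakes, 5 were upregulated and 2 downregulated with resveratrol and 6 and 1 with the combination, with median log2 fold changes of 0.07 and 0.08. Of all genes 56.9% and 59.8% were called in these comparisons, so that 7 of 11 in each is near the background. GAB1, a docking protein of receptor tyrosine kinases, rose from a mean of 43.7 normalized counts without treatment to 73.8 under resveratrol (0.76 ± 0.134) and 82.3 under the combination (0.91 ± 0.133, adjusted p = 4.15e-07). SOCS1, which binds and degrades IRS proteins, rose by 0.71 ± 0.148 and 0.74 ± 0.150. SH2B2 and SH2B1, adaptors that bind INSR and IGF1R, rose with the combination by 0.66 ± 0.206 and 0.34 ± 0.0683. EGCG changed 0 of the 11 in edgeR's test, with 0 at an unadjusted p under 0.05.

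Of 20 tested genes of PI3K, its phosphatases and AKT, 7 were upregulated and 7 downregulated with resveratrol and 8 and 7 with the combination, with median log2 fold changes of 0.05 and 0.01, beside 56.9% and 59.8% of all genes called. TRIB3, a pseudokinase that binds AKT and is known as a stress response gene, rose under all 3 treatments, by 0.20 ± 0.0399 under EGCG (adjusted p = 0.00431), by 0.68 ± 0.0389 under resveratrol and by 1.04 ± 0.0387 under the combination (adjusted p = 1.33e-22). The call with EGCG was lost in replicates 4 to 6 alone (0.16, adjusted p = 0.266). SGK3, an AKT-related kinase that also phosphorylates FOXO proteins, rose by 0.60 ± 0.104 and 0.47 ± 0.107. INPP4B, a phosphatase of PI3K products, fell in both (-0.53 ± 0.0475 and -0.47 ± 0.0479). PIK3R3, a regulatory subunit of PI3K, was called higher with the combination (0.44 ± 0.147, adjusted p = 0.0115), a call lost in replicates 1 to 3 alone (adjusted p = 0.226).

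Of 7 tested regulators of FOXO proteins, 1 was upregulated and 4 were downregulated with resveratrol and again with the combination, with median log2 fold changes of -0.26 and -0.30. Of all genes 28.9% were upregulated and 28.0% downregulated with resveratrol, and 29.9% each way with the combination. The upregulated gene, named after its values were seen, was SIRT1, a deacetylase of FOXO proteins (0.26 ± 0.0595 with resveratrol, 0.18 ± 0.0608 with the combination), and its call with the combination was lost in replicates 1 to 3 alone (0.10, adjusted p = 0.346). PRMT1, which methylates FOXO1 and hinders its phosphorylation by AKT, fell with resveratrol (-0.49 ± 0.0380) and with the combination (-0.51 ± 0.0382). XPO1, the exportin that carries FOXO proteins and many others out of the nucleus, fell in both (-0.26 ± 0.0532 and -0.45 ± 0.0536). SKP2, a ubiquitin ligase subunit that acts on FOXO1, and USP7, which removes ubiquitin from FOXO4, fell with the combination (-0.36 ± 0.0459 and -0.30 ± 0.0333). These genes also act on many proteins other than FOXO factors.

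Genes that FOXO factors are known to activate were mostly higher, on a list chosen with earlier results of these data known. The counts are thus a description and no independent test. Of 28 listed, 27 matched the table and 21 were tested, and 18 were upregulated and 1 downregulated with resveratrol and 19 and 1 with the combination. SOD2, the unmatched gene, had no row found by its symbol and was left out. The shares of all genes were 28.9% upregulated and 28.0% downregulated with resveratrol and 29.9% each way with the combination. The median log2 fold change over the 21 was 0.52 with resveratrol and 0.55 with the combination, beside 0.00 over all genes in each, and 0.06 with EGCG. GABARAPL1, an autophagosome protein, rose from 667 normalized counts to 1496 under resveratrol (1.17 ± 0.0332) and 1709.8 under the combination (1.36 ± 0.0332, adjusted p = 4.77e-28). CDKN1A, the cell cycle inhibitor p21, rose by 1.11 ± 0.0418 and 1.36 ± 0.0417. TNFSF10, the death ligand TRAIL, rose by 1.11 ± 0.1003 and 1.24 ± 0.1002, and BBC3, the apoptosis inducer PUMA, by 0.79 ± 0.129 and 0.99 ± 0.128. With EGCG, BNIP3, a mitochondrial protein of hypoxia and mitophagy, rose by 0.83 ± 0.0523 (adjusted p = 8.05e-14) and TXNIP, an inhibitor of thioredoxin, by 0.28 ± 0.0323 (adjusted p = 3.49e-07). BNIP3 was the list's downregulated gene with resveratrol (-0.20 ± 0.0574) and rose with the combination (0.53 ± 0.0540). Its call with resveratrol was lost with library size as the scaling (-0.11, adjusted p = 0.120) and in replicates 1 to 3 alone (-0.13). PRDX3, a mitochondrial peroxidase named after its values were seen, was the gene called lower with the combination (-0.14 ± 0.0478, adjusted p = 0.0109), a call lost with library size as the scaling (-0.06, adjusted p = 0.315). With resveratrol PRDX3 was not called in the main fit. It was called lower there under the replicate block (-0.09), with the set of replicates as a term (-0.09) and in replicates 4 to 6 alone (-0.14). The same held with every gene of at least 1 count (-0.10) and in the compared groups alone (-0.08). It also held without untreated replicate 6 (-0.11) or resveratrol replicates 2 (-0.11) or 3 (-0.10). CDKN1A, BBC3, SESN1 and GADD45A are also known targets of p53, and BNIP3 of hypoxia-inducible factors, and the factor behind these changes was not tested. Between the combination and resveratrol, 6 of the 21 were higher and 1 was lower, where 4.01% of all genes were higher and 3.86% lower.

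**Figure D5:**
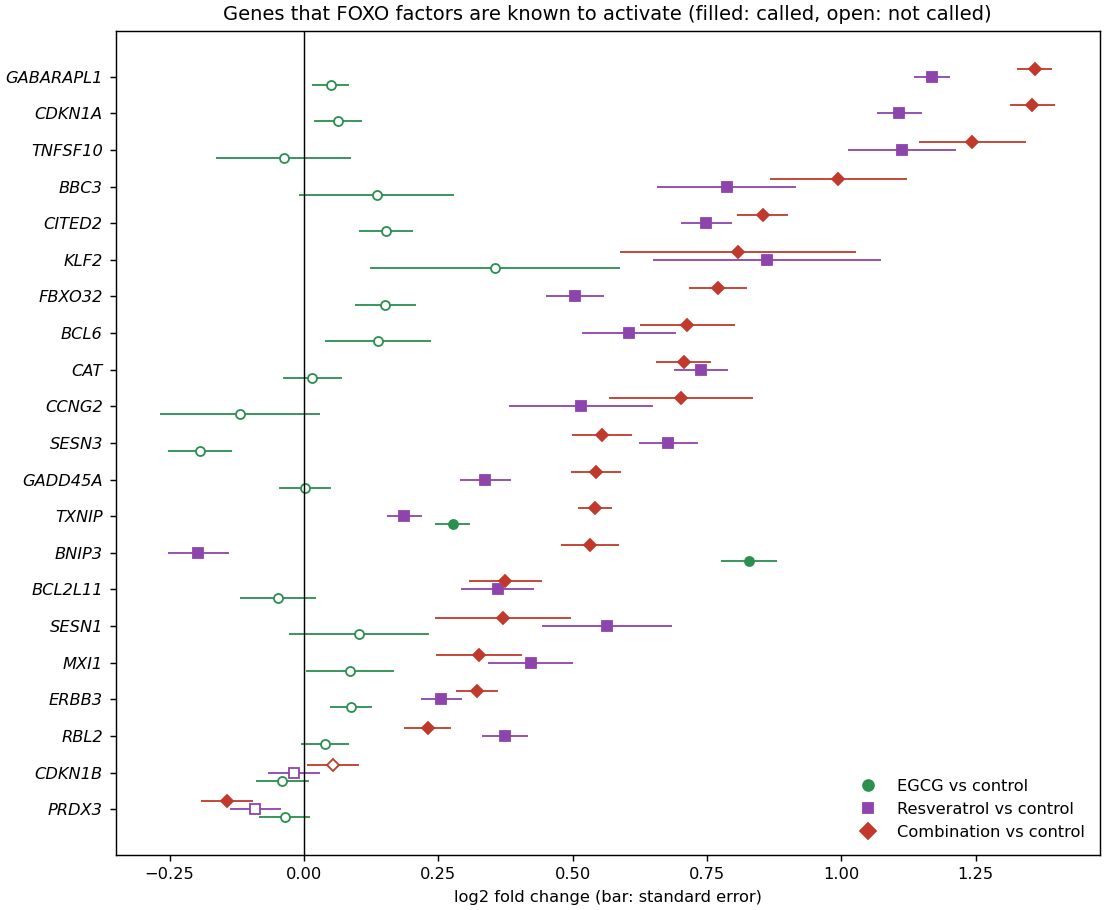
Fitted log2 fold change with standard error of the 21 tested genes that FOXO factors are known to activate, against the untreated control, with circles for EGCG, squares for resveratrol and diamonds for the combination, filled where called. All but CDKN1B and PRDX3 are called higher with the combination, and BNIP3 is below 0 with resveratrol and above 0 with EGCG.

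The genes most like the 4 most variable members were found by the root mean square difference of mean-centred log2 CPM over the 24 libraries. For FOXO1 they were TMEM184A (0.143) and EPS8L2 (0.158), where the median over all genes was 0.367. PIK3IP1 was closest to PC (0.150) and ULK3 (0.153). FOXO4 was closest to NDRG1 (0.234) and ACSS1 (0.252), with a median of 0.402, and INSR to EGLN3 (0.345) and MOSPD3 (0.366), with a median of 0.512. The likeness includes differences between groups and holds no test.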

How the data were processed

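RNA-seq was analysed for 24 libraries of the MDA686TU cell line in 4 groups of 6. The authors isolated total RNA with RNeasy, made TruSeq stranded mRNA libraries and sequenced paired ends. Reads were trimmed with Trimmomatic 0.36, dropping reads under 25 bases, and aligned to GRCh38 with HISAT2 2.0.4, and DESeq2 1.20.0 is named in the submitters' processing notes. The annotation release, counting program and strand setting are not given in the sources used here. The authors deposited raw counts as whole-number counts per gene. The normalized counts, a deposited signal per gene, are the raw counts divided by a size factor per library, and the deposited FPKM values divide these by gene length.

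All tests used the raw counts, in edgeR 4.0.16 under R 4.3.3 with TMM, filterByExpr and the quasi-likelihood test, on all 24 libraries with the group as the only factor. The SE is the log2 fold change over the root of F. Where edgeR bounds p by counting error (PIK3IP1 in every comparison, FOXO4 in most), it was taken from that p. Library totals of 7034872 to 11735574 counts leave counting error as the main limit for INSR, FOXO4 and PIK3IP1. The fits were also run on simulated counts with a common spread for all genes and changes placed only in well-counted genes. That run does not cover genes with few reads, such as INSR, FOXO4 and PIK3IP1, or the split between the sets of replicates. The 5 pathway lists, the markers and the 10 genes were chosen with earlier results of these data known. Of each list the text names the 4 largest changes called with the combination, and up to 3 genes called with EGCG or in the interaction. For the 4 members with the widest range of group means it names the 2 most similar genes, and it names overlapping or near-identical genes. Promoter sequences are from RefSeq, GRCh38.p14, and positions of overlapping genes from GENCODE. Replicate numbers were checked for pairing and were left out of the main fit. Alternatives were DESeq2 1.42.0, DESeq2 size factors or library size as the scaling, 2 filters on low counts, an adjusted p under 0.05, the compared groups alone, the replicate number as a block, replicates 1 to 3 or 4 to 6 alone or as a term, and each library left out in turn.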

Additional observations from a re-analysis of the deposited data

Results flagged for a closer look

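FOXO3 in resveratrol replicate 5 stood apart from the other libraries of its group, at 843 normalized counts where the nearest library had 775. The gap took 0.693 of the group's whole range, more than Dixon's test allows for 6 samples. In all, 40 groups of 6 were checked, and chance alone gives such a gap in about 1 in 20. Without this library FOXO3 was still upregulated with resveratrol (adjusted p = 0.00511).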

How the results depend on the processing

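Of 38 alternatives, 24 each left out 1 library. The calls of IGFBP3, IRS2 and FOXO3 against the untreated control with resveratrol and with the combination held in every alternative fitted for them. For a comparison of 2 groups, only the 12 libraries of those groups were left out in turn. Against the main counts of called genes, the 10 genes gave 1 in place of 0 with EGCG under the replicate block (IGFBP3, adjusted p = 0.0997), 1 in place of 2 between the combination and resveratrol at an adjusted p under 0.05 and in replicates 1 to 3 alone, and 5 in place of 8 between the combination and EGCG in replicates 4 to 6 alone. Same-numbered libraries of different groups had correlations of -0.0111 to 0.131 with a median of 0.0488. The median was 0.0276 for other numbers of the same set of replicates and -0.0406 across the sets. Of 24 libraries, 11 correlated best with their own number. Same-numbered libraries were thus slightly more alike, and the main fit still left the numbers out. Under the block IGFBP6 was called with the combination (adjusted p = 0.0721) and PIK3IP1 was not with resveratrol (adjusted p = 0.0925), and in the interaction 1 adaptor and 1 FOXO-activated gene were called in place of 0, as with the set of replicates as a term. DESeq2 also called 1 adaptor in the interaction. For the ligands and carriers, library size alone gave 6 with resveratrol, 7 with the combination and 6 between the combination and EGCG, and either filter on low counts gave 5 with resveratrol. Under library size alone, all tested genes gave 6147 upregulated and 2857 downregulated with resveratrol and 6041 and 3311 with the combination. Between the combination and EGCG they gave 5737 and 3250. The adaptors called between the combination and resveratrol fell to 0 with every gene of at least 1 count and within each set of replicates. Replicates 4 to 6 alone gave 4 adaptors with resveratrol, 0 PI3K and AKT genes with EGCG, 1 of these between the combination and resveratrol, and 0 FOXO regulators there. The cause of these shifts was not tested. Shares of all genes called under the other settings are not given here or below. The counts under those settings are thus not read as a result about the listed genes.

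With 1 library left out, the 10 genes gave 0 to 1 with EGCG (1 without untreated replicate 3), 7 to 9 with resveratrol, 8 to 9 with the combination, 1 to 2 between the combination and resveratrol and 7 to 8 between the combination and EGCG. The PI3K and AKT genes gave 2 to 4 and the adaptors 0 to 1 between the combination and resveratrol, and the adaptors and the FOXO-activated genes gave 0 to 1 each in the interaction. Signs of uncalled log2 fold changes turned for INSR with resveratrol (-0.11 to 0.18), PIK3IP1 with EGCG (-0.12 to 0.0012), FOXO4 between the combination and EGCG (-0.031 to 0.19), PIK3R3 with resveratrol (-0.024 to 0.11) and, in the interaction, IRS1 (-0.030 to 0.017) and FOXO3 (-0.0078 to 0.039). Under library size alone IGFBP6 with the combination turned to 0.00073. In replicates 1 to 3 alone PIK3IP1 with EGCG was 0.17, INSR with resveratrol -0.24 and the FOXO1 interaction 0.087. In replicates 4 to 6 alone, the combination against resveratrol gave -0.26 for INSR and 0.017 for IRS1, the combination against EGCG gave -0.084 for FOXO4, and the interaction gave -0.17 for INSR and 0.081 for IRS1. INSR and FOXO4 did not pass the filter of 10 counts in every library and have no value there.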
